A study of Mus musculus with 2 samples.

Results

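The homeobox and paired-box factors and the AP-2 gene Tfap2b described here are 65 transcription factor genes, chosen by symbol. They are the Hox genes of the 4 clusters, Irx1 to Irx6, the Pax and Lhx genes, and the sine oculis homeobox genes Six2 to Six6. Emx1, Emx2, Cux1 and Tfap2b complete the set. All 65 were taken from the 19505 genes that carried a symbol on the arrays. The question for these genes was whether their RNA levels differed between proximal tubular (PT) cells of KAT5 KO mice and of wild-type mice. KAT5 is a histone acetyltransferase that acts in DNA repair.

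PT cells of KAT5 KO mice (γGT-Cre with a floxed KAT5 gene, C57BL/6J background) were measured on 1 Clariom S mouse array and PT cells of wild-type mice on 1 further array, both at 8 weeks of age and both labelled male. The sample descriptions also contain the word embryos, which the stated age does not match. The protocol was depletion of endothelial cells with an anti-CD31 antibody, then selection with anti-Prominin1 magnetic beads. γGT drives Cre in all segments of the PT, most strongly in the last one, and other cell types of the preparation are not its target. The labels do not give the number of animals behind an array or the Cre and floxed alleles of the wild-type mice. All values below are RMA levels on the log2 scale as deposited, and every difference is KAT5 KO minus wild-type. With 1 array per genotype there was no spread between animals and no test, so each difference describes these 2 arrays. A level under 5.14 was treated as background, which is the larger of the values reached on either array at the 95th percentile of 1452 odorant, pheromone and taste receptor genes. A gene above this level on at least 1 array is called measured, and a level under it was raised to it before subtraction, which makes the difference a bound. Genes were counted as higher or lower at 2-fold or more, a log2 difference of 1.

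Several measured facts concern the preparations themselves. Kat5 had a level of 8.67 on the KAT5 KO array and 10.20 on the wild-type array, so that the KAT5 KO array held 34.8% of the wild-type level. Of the genes on the Y chromosome, Eif2s3y, Uty and Kdm5d were at 2.29, 3.42 and 3.76 on the KAT5 KO array, all under background, and at 10.11, 9.84 and 7.69 on the wild-type array, although both samples are labelled male. All 16 PT markers were higher on the KAT5 KO array, with a median difference of 7.07, and their summed level was 22.23 there and 15.20 on the wild-type array. Markers of the loop of Henle lay on the other side, with 6 of 7 lower, 1 higher and a median of -2.99. PT markers were above background on both arrays, though Slc22a6 only just so on the wild-type array (5.21). Of 7 measured endothelial markers, 6 were lower and 0 higher (median -1.21). Emcn, an endothelial marker, was at 6.82 on the KAT5 KO array and 9.32 on the wild-type array. Pecam1, the gene of CD31, differed by -0.73 and lay within 2-fold. Median differences were -2.19 for principal cell (5 of 8 lower), -2.96 for intercalated cell (6 of 7), -1.765 for stromal (3 of 4) and -1.81 for myeloid markers (5 of 6). In these lists 0 were higher and the rest lay within 2-fold. Of 4 measured podocyte markers, 2 were lower and 1 higher (Clic5, 2.61), with a median of -0.88. Both arrays therefore held RNA of other nephron segments, endothelial cells and leukocytes beside that of the PT. In such bulk preparations, fewer cells of a type and less RNA per cell cannot be told apart, and genotype, cell composition and the sex of the animals cannot be told apart between 2 arrays.

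Homeobox genes encode proteins that bind DNA through a conserved domain, the homeodomain, and give cells their position and identity. The Hox genes lie in 4 clusters whose gene order follows their order of expression along the body axis, and genes with the same number in different clusters are paralogs. In the kidney, Pax2 and Pax8 set up the nephric lineage together with Lhx1, Six2 keeps nephron progenitors, Irx genes mark the intermediate nephron, and Tfap2b acts in the distal nephron. Adult tubules retain a part of this code.

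Of the 65 genes, 29 were measured and 36 were under background on both arrays, beside 11639 measured of all 19505 genes with a symbol. Among the 29, 1 was 2-fold or more higher on the KAT5 KO array (Hoxa10) and 5 were lower (Tfap2b, Pax5, Hoxd10, Hoxd8 and Irx2), whereas 18 lay within 2-fold with both levels above background. For the other 5 (Hoxa4, Hoxb3, Lhx8, Pax3 and Six4) the bound was under 2-fold, so the size of the difference is not known. Over all 11639 measured genes, 17.8% were higher and 15.9% were lower, beside 3.45% higher and 17.2% lower among the members. After centring of the arrays on their medians, or after removal of the trend of the difference on the level, 3 members were higher and 5 lower. Over all measured genes, 18.8% were higher and 14.3% lower with centred arrays, and 19.1% and 13.6% with the trend removed. The median difference of the members was 0.02 and their mean -0.15, opposite in sign, and the median of all measured genes was -0.05. Positive and negative differences were held by 16 and 13 members, beside 5504 and 6128 of all measured genes. For 10 members above background on both arrays the difference was smaller in size than 0.547, the SD of the difference over the dim receptor genes. Of these receptor genes, 7.71% differed by 2-fold or more between the deposited levels.

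**Figure D1:**
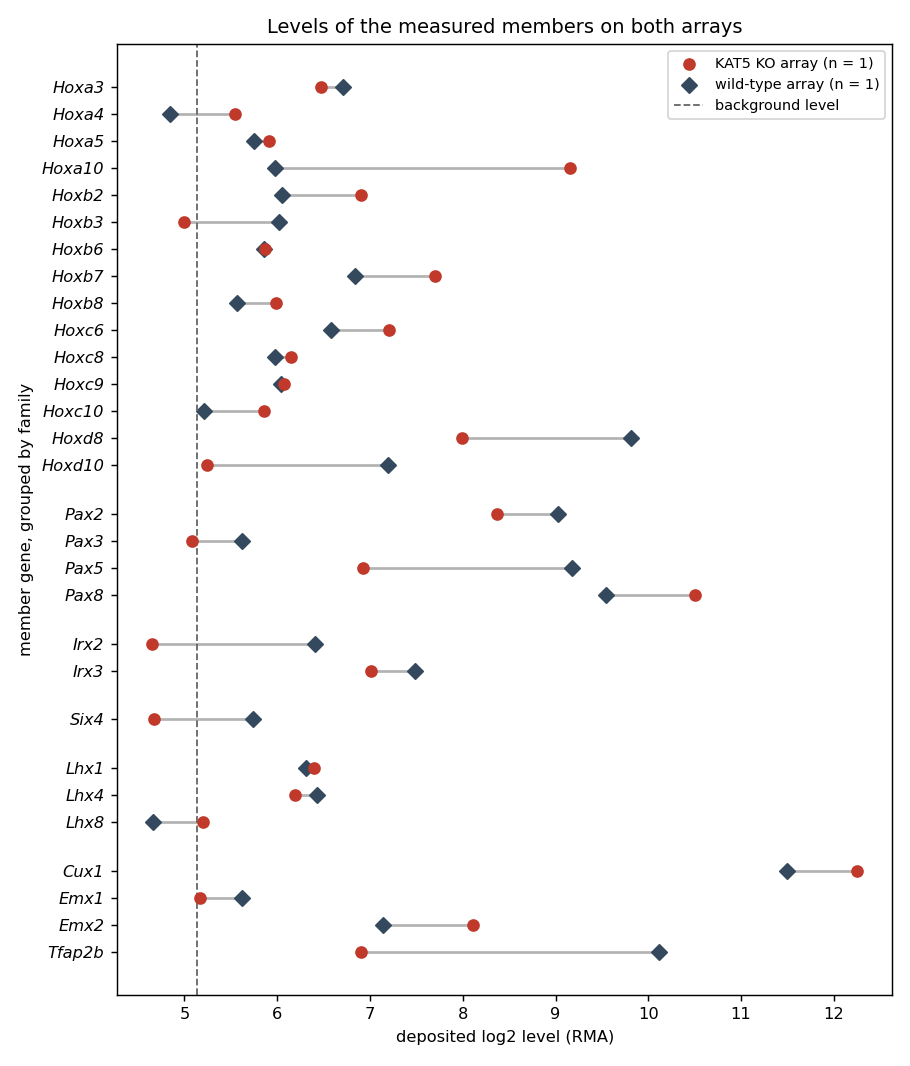
Deposited log2 levels (x axis) of the 29 measured members (rows, by family) on the KAT5 KO array (circles) and the wild-type array (diamonds), with the background level as a dashed line and 1 array per genotype. The long lines belong to Hoxa10, brighter on the KAT5 KO array, and to Hoxd8, Hoxd10, Pax5, Irx2 and Tfap2b, brighter on the wild-type array. Levels of different genes come from different probes and have no common scale.

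Hoxa10 had the widest gap among the Hox genes. Its level was 9.16 on the KAT5 KO array and 5.98 on the wild-type array, a difference of 3.18 or 9.06-fold higher. Of all measured genes, 4.03% had a larger positive difference. Hox genes of paralog group 10, such as this one, pattern the lumbar spine and hind limb and are needed in the stroma of the developing mouse kidney. The gene lies on chromosome 6 (GRCm38.p6, chr6:52231197-52240854).

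The paralogs of Hoxa10 differed from it in direction or in size. Hoxd10 had a level of 5.24 on the KAT5 KO array and 7.19 on the wild-type array, a difference of -1.95 (3.85-fold lower). The KAT5 KO level of Hoxd10 lay just above background. Hoxc10 had a level of 5.86 on the KAT5 KO array and 5.21 on the wild-type array and lay within 2-fold (0.65). The same numbered group thus held one gene that was higher, one that was lower and one within 2-fold.

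Hoxd8 stood on the lower side with Hoxd10. Its level was 8.00 on the KAT5 KO array and 9.81 on the wild-type array, a difference of -1.82 (3.52-fold lower), and 5.84% of the measured genes had a more negative one. These were the only genes above background among the analysed genes of the Hoxd cluster, and both were lower. They lie close together on chromosome 2, Hoxd10 at chr2:74684273-74695106 and Hoxd8 at chr2:74704615-74707933. Hoxd9, the gene between them, was under background on both arrays (4.88 on the KAT5 KO array and 4.95 on the wild-type array), and so were Hoxd1, Hoxd11, Hoxd12 and Hoxd13.

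Hoxb7 and Hoxb2 had the next largest positive differences among the Hox genes, though both lay within 2-fold. Hoxb7, whose promoter is widely used to mark the ureteric bud and collecting duct, had a level of 7.70 on the KAT5 KO array and 6.84 on the wild-type array (0.86). Hoxb2, a gene of hindbrain patterning, was at 6.91 on the KAT5 KO array and 6.05 on the wild-type array (0.85). Hoxb3 was just under background on the KAT5 KO array and at 6.02 on the wild-type array, a difference of -0.88 or lower (-1.03 between the deposited levels). Hoxb8 was at 5.99 on the KAT5 KO array and 5.57 on the wild-type array (0.42), and Hoxb6 at 5.87 on the KAT5 KO array and 5.86 on the wild-type array (0.01). Of the 5 measured Hoxb genes, 4 therefore had positive differences, all within 2-fold, and the median of the cluster was 0.42. Of all measured genes, 5504 had positive and 6128 had negative differences.

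The Hoxc genes were level between the arrays within 2-fold. All 4 measured genes had positive differences, beside 5504 positive and 6128 negative ones over all measured genes. They ran from 0.02 for Hoxc9 (6.07 on the KAT5 KO array and 6.05 on the wild-type array) to 0.65 for Hoxc10. Hoxc6 was at 7.20 on the KAT5 KO array and 6.58 on the wild-type array (0.62), and Hoxc8 at 6.15 on the KAT5 KO array and 5.98 on the wild-type array (0.17). In the Hoxa cluster, the genes other than Hoxa10 had small differences or a bound. Hoxa3 differed by -0.24 (6.47 on the KAT5 KO array and 6.71 on the wild-type array) and Hoxa5 by 0.17 (5.91 on the KAT5 KO array and 5.74 on the wild-type array). Hoxa4 was at 5.54 on the KAT5 KO array and under background on the wild-type array (4.85), a difference of at least 0.40. Hoxa3 and Hoxa5 lay within 2-fold, and for Hoxa4 only the bound is known.

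By position along the clusters, the measured genes were mainly those with low and middle numbers. Of 18 Hox genes with a symbol in paralog groups 1 to 8, 11 were measured, with 1 lower, 0 higher and a median of 0.17. Of 15 in groups 9 to 13, 4 were measured, with 1 higher, 1 lower and a median of 0.33. Over all genes with a symbol, 11639 of 19505 were measured, with 17.8% of these higher and 15.9% lower. None of the genes numbered 11 to 13, which pattern the most posterior structures, was above background on either array. Hoxa11 and Hoxd11, which the metanephric kidney needs to form, are among them: Hoxa11 was at 4.07 on the KAT5 KO array and 3.84 on the wild-type array, and Hoxd11 at 3.14 on the KAT5 KO array and 2.88 on the wild-type array. Over all 15 measured Hox genes the median was 0.17, with 11 positive and 4 negative differences. Over all measured genes, 5504 differences were positive and 6128 negative. Some differences of either sign, such as 0.01 for Hoxb6 and -0.24 for Hoxa3, were smaller in size than 0.547, the SD over the receptor genes.

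**Figure D2:**
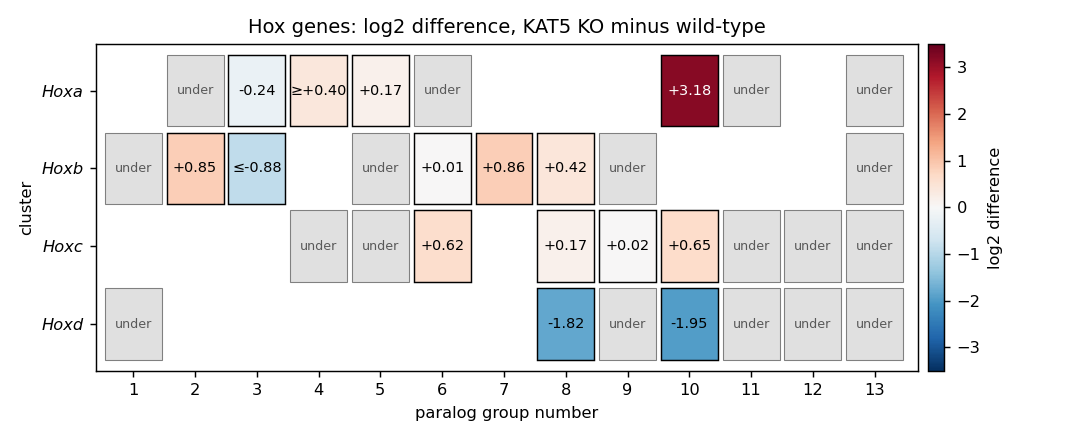
Log2 difference (KAT5 KO minus wild-type, colour and number) of each Hox gene analysed, by cluster (rows) and paralog group number (columns), from 1 array per genotype. Grey cells were under background on both arrays, empty places hold no gene analysed here, and signs of inequality mark bounds. The dark cells are Hoxa10 (3.18) and, on the other side, Hoxd8 (-1.82) and Hoxd10 (-1.95).

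Tfap2b, which encodes the transcription factor AP-2 beta of the distal nephron, had the largest negative difference of all members. Its level was 6.90 on the KAT5 KO array and 10.12 on the wild-type array, a difference of -3.22, so that the KAT5 KO array held 10.7% of the wild-type level. A share of 0.558% of the measured genes had a more negative difference. The gene lies on chromosome 1 (chr1:19208908-19238845). Of 6 markers of the distal convoluted tubule, 5 were lower and 0 higher (median -2.06), and their summed level was 17.64 on the KAT5 KO array and 20.13 on the wild-type array. Slc12a3, the thiazide-sensitive cotransporter that defines this segment, differed by -1.89. The summed level of the loop of Henle markers was 16.08 on the KAT5 KO array and 20.31 on the wild-type array. The part of these segments in the difference of Tfap2b was not tested. Its relative Tfap2a, on the list of other nephron factors, differed by -1.08.

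The 5 genes that were 2-fold or more apart with both levels above background are Hoxa10, Hoxd8, Hoxd10, Pax5 and Tfap2b. Their promoter windows are shown because they hold annotated starts of the genes furthest apart. For Hoxd10 and Tfap2b the window lies inside the gene interval given above, not at its upstream end. Each window runs from 250 bases before to 50 bases after a start in RefSeq (GRCm38.p6), 5′ to 3′ on the strand of the gene. Capitals mark CCAAT, the box bound by NF-Y, on either strand.
Hoxa10, start nearer the gene's end, chr6:52234890-52235189, minus strand: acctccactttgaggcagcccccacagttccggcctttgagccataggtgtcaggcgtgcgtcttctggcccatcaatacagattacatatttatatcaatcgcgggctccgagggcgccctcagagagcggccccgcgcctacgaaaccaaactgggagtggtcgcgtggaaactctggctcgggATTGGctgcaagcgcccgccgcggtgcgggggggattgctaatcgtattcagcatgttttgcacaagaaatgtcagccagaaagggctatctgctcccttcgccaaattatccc
Hoxa10, upstream start, chr6:52240805-52241104, minus strand: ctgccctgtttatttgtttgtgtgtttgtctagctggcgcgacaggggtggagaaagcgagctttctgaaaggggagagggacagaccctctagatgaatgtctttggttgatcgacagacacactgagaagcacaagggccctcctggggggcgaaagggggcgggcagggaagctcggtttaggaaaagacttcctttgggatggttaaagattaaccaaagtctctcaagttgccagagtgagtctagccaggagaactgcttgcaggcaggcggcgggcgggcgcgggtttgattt
Hoxd10, chr2:74691641-74691940, plus strand: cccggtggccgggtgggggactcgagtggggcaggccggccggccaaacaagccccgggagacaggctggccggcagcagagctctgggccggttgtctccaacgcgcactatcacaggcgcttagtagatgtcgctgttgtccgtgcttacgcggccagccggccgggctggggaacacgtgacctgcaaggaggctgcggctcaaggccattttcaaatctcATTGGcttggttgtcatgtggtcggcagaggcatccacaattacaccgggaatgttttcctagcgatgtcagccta
Hoxd8, chr2:74704365-74704664, plus strand: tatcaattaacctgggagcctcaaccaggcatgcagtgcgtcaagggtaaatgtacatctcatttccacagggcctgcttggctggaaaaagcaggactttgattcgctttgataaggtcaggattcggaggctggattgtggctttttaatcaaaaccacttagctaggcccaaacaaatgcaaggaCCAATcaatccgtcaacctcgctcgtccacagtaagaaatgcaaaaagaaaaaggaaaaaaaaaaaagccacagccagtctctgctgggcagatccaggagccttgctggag
Pax5, chr4:44710645-44710944, minus strand: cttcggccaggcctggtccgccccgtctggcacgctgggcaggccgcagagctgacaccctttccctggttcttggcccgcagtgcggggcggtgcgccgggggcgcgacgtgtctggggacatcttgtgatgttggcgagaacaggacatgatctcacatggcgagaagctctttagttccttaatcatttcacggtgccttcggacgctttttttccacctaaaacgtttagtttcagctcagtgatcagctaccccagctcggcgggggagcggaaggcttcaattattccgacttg
Tfap2b, chr1:19211804-19212103, plus strand: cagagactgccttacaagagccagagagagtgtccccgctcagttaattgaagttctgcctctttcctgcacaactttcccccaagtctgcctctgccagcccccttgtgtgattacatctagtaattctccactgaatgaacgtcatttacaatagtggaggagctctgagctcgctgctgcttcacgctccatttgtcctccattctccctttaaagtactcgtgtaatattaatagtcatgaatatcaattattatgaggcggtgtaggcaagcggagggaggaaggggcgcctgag

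CCAAT was in 10 of the 23 windows of 19 measured members and in 37.4% of all 32851 windows. Of the windows shown, it stood in that of Hoxa10 nearer the gene's end, in Hoxd10 and in Hoxd8, that is beside a gene that was higher and beside genes that were lower. TGACAG, a site of Meis proteins, was in 2 of the 23 and in 19.2% of all, and GCCNNNGGC, the site of AP-2 proteins, in 5 of the 23 and in 16.6% of all. The motif TATAAA was in 2 of the 23 and in 13.6% of all. Both strands were searched for each motif. The windows also differed in CpG dinucleotides, of which Hoxd10, Pax5 and Hoxa10 (start nearer the gene's end) held 22, 23 and 21, Tfap2b 8 and Hoxd8 6, beside a median of 20 over the members' windows and 7 over all. These are counts of letters, and binding was not measured.

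Among the Pax genes, which encode paired-domain factors, the members of the nephric lineage lay within 2-fold in opposite directions. Pax8 had a level of 10.51 on the KAT5 KO array and 9.54 on the wild-type array, a difference of 0.96 (1.95-fold higher). Pax2, its close relative, had a level of 8.36 on the KAT5 KO array and 9.03 on the wild-type array, a difference of -0.67. Of the measured genes, 18.2% had a larger positive difference than Pax8. Both factors were well above background on both arrays.

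Pax5, the factor that commits cells to the B lymphocyte lineage, was the Pax gene furthest apart. Its level was 6.93 on the KAT5 KO array and 9.18 on the wild-type array, a difference of -2.25 (4.75-fold lower), and 3.18% of the measured genes had a more negative one. The gene lies on chromosome 4 (chr4:44524748-44710694). All 4 measured lymphocyte markers were lower as well, with a median of -2.37, while Cd3e and Cd3g, which define T cells, were under background on both arrays. The B cell receptor genes Cd79a and Cd79b were at 8.80 and 7.37 on the KAT5 KO array and at 11.63 and 9.60 on the wild-type array. The summed level of the lymphocyte list was 9.51 on the KAT5 KO array and 12.07 on the wild-type array, and its part in the difference of Pax5 was not tested. Pax3, a neural crest and muscle factor, was under background on the KAT5 KO array (5.08) and at 5.62 on the wild-type array, a difference of -0.48 or lower, and Pax1, Pax4, Pax6, Pax7 and Pax9 were under background on both.

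Of the Irx genes, 2 of 6 were measured and both were brighter on the wild-type array. Irx2 was under background on the KAT5 KO array (4.65) and at 6.41 on the wild-type array, at least 2.42-fold lower. Irx3 had a level of 7.01 on the KAT5 KO array and 7.49 on the wild-type array, within 2-fold (-0.48). Irx1, at 3.37 on the KAT5 KO array and 4.80 on the wild-type array, was under background on both, as were Irx4, Irx5 and Irx6. These genes mark the future loop of Henle in the developing nephron. Of the 7 measured loop of Henle markers, 6 were lower, the furthest being Slc12a1 (-4.55), while Cldn10 was higher (2.47). Other segments were lower as well, such as the principal cell markers (median -2.19) and the intercalated cell markers (-2.96). The part of any segment in the differences of the Irx genes was not tested. With the background level from the median of all probe sets, the bound for Irx2 was under 2-fold (-0.82 or lower). The same held with the receptor genes at their 99th percentile (-0.53 or lower). The size of the difference is not known at these settings.

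Few sine oculis homeobox and LIM homeobox genes were measured. Six4 was under background on the KAT5 KO array (4.68) and at 5.74 on the wild-type array, a difference of -0.60 or lower (-1.06 between the deposited levels). Six2, the factor of nephron progenitors, was under background on both arrays (4.49 on the KAT5 KO array and 4.80 on the wild-type array), as were Six3, Six5 and Six6. Lhx1, needed for the nephric duct and early nephron, was at 6.39 on the KAT5 KO array and 6.31 on the wild-type array and differed by 0.09. Lhx4, a pituitary and motor neuron factor, was at 6.19 on the KAT5 KO array and 6.43 on the wild-type array (-0.23). Lhx8, a factor of forebrain neurons and oocytes, was just above background on the KAT5 KO array (5.20) and under it on the wild-type array (4.66), a difference of at least 0.07. Lhx1 and Lhx4 were thus close between the arrays, while Six4 and Lhx8 have only bounds.

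Emx2, Cux1 and Emx1 lay within 2-fold. Emx2, without which mice form no kidney, had a level of 8.11 on the KAT5 KO array and 7.14 on the wild-type array, a difference of 0.97. Cux1, a cut-like repressor with roles in proliferation, was at 12.25 on the KAT5 KO array and 11.50 on the wild-type array (0.75). Emx1, known mainly from the cerebral cortex, was at 5.17 on the KAT5 KO array and 5.62 on the wild-type array (-0.45). Emx2 and Pax8 passed 2-fold with the arrays centred on their medians (1.06 and 1.05) and with the trend on level removed (1.02 and 1.08). The 36 members under background, among which are also Hoxa2, Hoxa6, Hoxa13, Hoxb1, Hoxb5, Hoxb9, Hoxb13, Hoxc4, Hoxc5, Hoxc11, Hoxc12, Hoxc13, Lhx2, Lhx3, Lhx5, Lhx6 and Lhx9, had levels from 2.34 to 4.90 on the KAT5 KO array and from 2.23 to 4.95 on the wild-type array. Differences of these genes were not read.

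**Figure D3:**
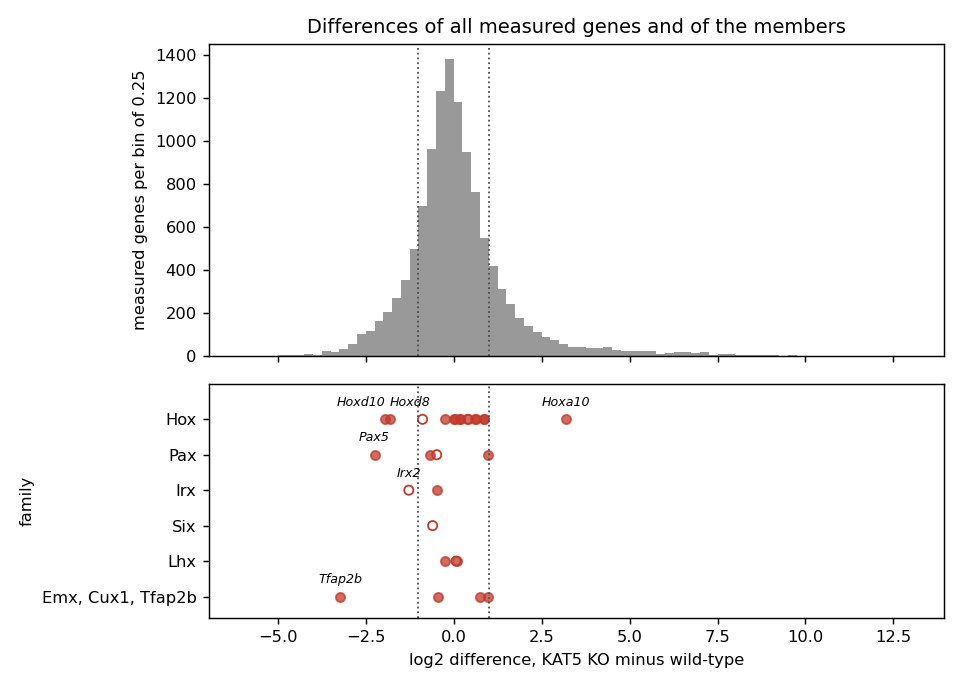
Upper panel, number of measured genes per bin of log2 difference (KAT5 KO minus wild-type) over all 11639 measured genes. Lower panel, the difference of each measured member by family, with open circles for bounds and dotted lines at 2-fold. Most members lie between the lines, 5 of them as bounds, with Hoxa10 to the right and Tfap2b, Pax5, Hoxd10, Hoxd8 and Irx2 to the left.

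Among genes whose products work with these factors, 10 of 15 measured genes (66.7%) were within 2-fold, beside 66.3% of all measured genes. Of 5 measured genes of the TALE class, whose products bind DNA together with Hox proteins, Pbx3 alone was 2-fold or more apart (0 higher, 1 lower), and the median was -0.38. Pbx3 was at 6.86 on the KAT5 KO array and 8.05 on the wild-type array (-1.20). Meis1 and Meis2 differed by -0.21 and -0.38. Of the 3 measured partners of the sine oculis proteins (Eya1, Eya3 and Dach1), 0 were higher or lower, and the median was -0.62. Of 7 measured LIM binding partners, through which Lhx proteins form complexes, 3 were lower and 1 was higher (median -0.69). Ldb1, the adaptor that bridges LIM factors, differed by -1.77 (12.22 on the KAT5 KO array and 13.99 on the wild-type array), and Lmo4 by 1.25.
Of 16 measured chromatin regulators known to act on Hox clusters (Polycomb and trithorax genes), 1 was higher, 0 were lower, and the median was -0.21. Over all measured genes, 17.8% were higher and 15.9% lower. The higher one was Men1, a subunit of MLL complexes, at 8.63 on the KAT5 KO array and 7.41 on the wild-type array (1.22), and the most negative difference was that of Eed (-0.85), a core subunit of Polycomb repressive complex 2.

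Other nephron transcription factors were split, with 8 of 23 measured genes higher, 8 lower and a median of -0.05. That is 34.8% each way, beside 17.8% higher and 15.9% lower over all measured genes. Hnf4a, which drives maturation of the PT, was at 14.17 on the KAT5 KO array and 7.87 on the wild-type array (6.30). Ppara, a regulator of fatty acid breakdown, was higher by 5.43, and Hnf4g, a relative of Hnf4a, was at least 4.59-fold higher. All 16 PT markers were higher as well (median 7.07), and the part of PT content in these differences was not tested. On the lower side were Mecom (-3.54), Sim2 (-2.52) and Sim1 (-2.20). The medians of the member families, for comparison, were 0.17 for Hox, -0.57 for Pax, -0.88 for Irx and 0.07 for Lhx.

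**Figure D4:**
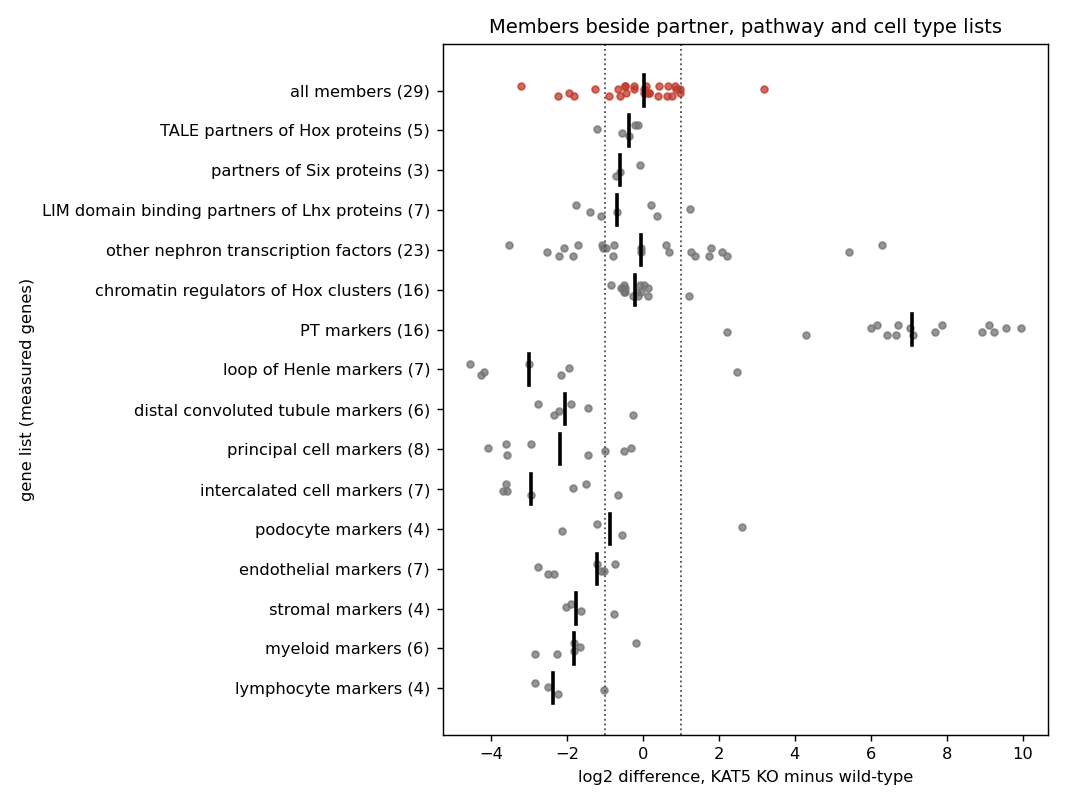
Log2 difference (KAT5 KO minus wild-type) of each measured gene (points) in the members and in the partner, pathway and cell type lists (rows, number of measured genes in brackets), with the list's median as a bar and dotted lines at 2-fold. The members centre on 0.02, while PT markers centre on 7.07 and markers of other segments and of blood cells lie mostly below 0.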

How the data were processed

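Total RNA of the PT cells, 64 ng per sample, was hybridised to Clariom S mouse arrays (Affymetrix), 1 per genotype. Per the labels, the authors used RMA and the Transcriptome Analysis Console. The deposited values are log2 levels of 28846 probe sets. Versions of these tools are not given in the sources used here. RMA normalizes the arrays to a common distribution, so each difference is relative to the other genes. The log2 scale was checked from the range of the values.

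Of the probe sets, 19572 carried the symbol of 1 gene in the platform annotation, 0 carried several and 9274 carried none and were left out. Levels were averaged over probe sets of a gene, and each of the 65 members had a single one. All 65 gene numbers matched RefSeq (GRCm38.p6), from which positions and promoter windows were taken.

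Samples were grouped by the genotype label and compared as KAT5 KO minus wild-type. The number of arrays limits the precision: with 1 per genotype no error, test or removal of a replicate was possible. Background (5.14) came from the receptor genes at the 95th percentile, on the array where this was larger. Every measured member is named. Of the partner and pathway lists with a gene 2-fold or more apart, the genes with the highest positive and the most negative difference are named, up to 3 each way for other nephron transcription factors. Further list genes were named after their values were seen. The members and the 15 gene lists were chosen with earlier results of these data known. Some genes that fit the rule, and lists tied to them, are not reported here. Alternatives were 3 further scalings, 3 other background levels, the brightest probe set, thresholds of 1.5-fold and 3-fold, and the mean. The steps were tested on simulated arrays. Python 3.11.15 with numpy 2.4.6, pandas 2.3.3 and statsmodels 0.14.6 was used.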

Additional observations from a re-analysis of the deposited data

How the results depend on the processing

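Over 7 alternative scalings, background levels and choices of probe set, 194 differences of the 29 members were recomputed. Of these, 186 kept their side of 2-fold and 6 passed it, while 0 called differences turned sign. The other 2, both of Irx2, were bounds that came under 2-fold, so their size is not known. Members that fell under background could not be recomputed. Background from the receptor genes at the 99th percentile left 22 members measured, and from the median of all probe sets 27. The ranges were 3.13 to 3.27 for Hoxa10, -3.32 to -3.13 for Tfap2b, -2.34 to -2.16 for Pax5, -1.94 to -1.73 for Hoxd8 and -1.95 to -1.30 for Hoxd10. The -1.30 for Hoxd10 is a bound (-1.30 or lower), because its KAT5 KO level was under the background taken at the 99th percentile. The -1.60 with background from the median of all probe sets is a bound as well. The count of higher members, 1 as reported, was 3 with centred arrays and 3 with the trend on level removed. The shares of all measured genes that were higher were 18.8% and 19.1% at these settings. The count of lower members was 8 with no background level, where Hoxb3, Six4 and Irx1 joined and all 65 members were counted, beside 12.6% of all genes lower. At 1.5-fold 8 members were higher and 8 lower, beside 26.6% and 26.9% of all measured genes. Of the 54 measured partner and pathway genes, 10 were higher (18.5%) and 12 lower (22.2%) at 2-fold, beside 17.8% and 15.9% of all measured genes. At 1.5-fold 12 were higher and 20 lower, and at 3-fold 6 were higher and 7 lower, beside 10.7% and 7.88% of all measured genes at 3-fold. The median over all measured genes, -0.05 as reported, was 0.02 with centred arrays, -0.08 with quantile normalization and 0.05 with the trend removed. Counting only members above background on both arrays, chosen after seeing the data, gave 1 higher and 4 lower, beside 18.2% and 17.2% of all genes above it on both. No paired analysis was possible because each genotype had 1 array, and no array could be left out. Members near the background level, such as Hoxd10 on the KAT5 KO array, are limited by signal over background.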
